A study of Homo sapiens with 8 samples.

Results

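The 4 groups formed a 2x2 design in which a natural ligand of the receptor CD30 and an antibody against it were each given or withheld, and the question taken up here is whether the response to both equalled the sum of the responses to each. All 8 of the 8 arrays of the series entered, and of 48797 probes on the array the 12543 detected on at least 2 arrays were used, whatever their response. The brightest probe stood for each gene, which left 10183 features, 8509 of them named genes and 1674 probes without a single gene symbol. The interaction is a difference of differences in log2 intensity, the combination minus the ligand alone, less the antibody alone minus untreated cells. A feature is called sub-additive here where the interaction has the opposite sign to the summed single responses, and super-additive where it has the same sign.

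The cells were Karpas 299, a human cell line grown from an anaplastic large cell lymphoma, a T cell tumour, and driven by an NPM1-ALK fusion kinase. After 16 h of culture they were given, for 8 h in the same medium, both agents at 10 µg/ml each, the agonistic monoclonal antibody T104 at 10 µg/ml, the ligand CD153 joined to an antibody Fc part (CD153-Fc) at 10 µg/ml, or neither. Each group held 2 biological duplicates on Illumina HumanHT-12 v3 expression arrays. The cells given both agents therefore received more total protein than those given 1 agent, only 1 dose of each agent was used, and no group received an Fc part or an unrelated antibody, so that effects of dose, Fc or total protein cannot be told apart from an effect of pairing the agents. All groups were cells of the same line, and the antibody and the ligand were present together from the start of the treatment.

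CD30, encoded by TNFRSF8, belongs to the tumour necrosis factor (TNF) receptor superfamily. It has no enzyme activity of its own. When a trimeric ligand or a cross-linking antibody gathers it on the cell surface, TRAF adaptor proteins bind its tail and the kinases that free NF-kB transcription factors are switched on. NF-kB dimers raise chemokines, adhesion and survival genes, and also their own brakes, such as the inhibitor genes NFKBIA and NFKBIE and the ubiquitin-editing gene TNFAIP3, so that the output of the pathway limits itself.

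Mean probe intensity ran from 722 to 850 per array and the number of detected probes from 10713 to 12967. The duplicates differed with an SD of 0.26 log2 across features for the combination, 0.23 for T104 and 0.24 for CD153-Fc, against 0.45 for untreated cells, so the untreated pair, which enters every interaction, was the least alike. Of 8 defining markers of the lymphoma, 7 passed the detection filter and CLU was detected on 0 arrays. Among the brighter ones, log2 intensities lay between 13.10 and 13.56 for ALK, 12.36 and 13.72 for the interleukin-2 receptor gene IL2RA, and 12.65 and 13.29 for the perforin gene PRF1. The TNFRSF8 probe was near background and was detected on 0 combination arrays, 0 T104 arrays, 1 CD153-Fc array and 1 untreated array, so the level of the receptor's own transcript cannot be followed. Of the marker lists of other cell types, 1 of 12 B cell genes, 4 of 15 monocyte and macrophage genes, 1 of 12 natural killer cell genes and 1 of 14 fibroblast and endothelial genes were bright enough to test. Of these, 0 were called for the interaction, where 1.34% of all features were.

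Many of the genes whose response to both agents fell furthest below the sum are NF-kB targets, and promoters that hold an NF-kB-like word are shown because the word was more frequent among the negative calls than among all promoters, although most of the negative calls lack it. The word searched was GGNNTTTCC, a core form of the NF-kB motif, on either strand (GGAAANNCC on the other strand), in the 250 bases before and 50 after the start in the RefSeq promoter table of GRCh38.p14. It was present in 15 of 57 promoters of the genes called with a negative interaction (26.3%), in 1 of 34 of those called with a positive interaction (2.94%), in 496 of 7078 promoters of all named genes tested (7.01%), and in 1710 of all 27305 promoters in the table (6.26%). All negative calls had a higher mean with each single agent than in untreated cells. The frequency among other raised genes was not counted. Whether the word goes with the interaction apart from the rise was therefore not tested. The 5 below are those among the 15 genes with the most negative interaction that held the word upstream of the start. Each is read on the gene's own strand, with matches in capitals, and the match nearest the start ended 82 bases upstream of it in CXCL8, 221 in CXCR4, 77 in LTB, 72 in NFKBIA and 46 in TNFAIP3. A match is a description of the letters and not a site of binding.
CXCL8, chr4:73740443-73740521, plus strand: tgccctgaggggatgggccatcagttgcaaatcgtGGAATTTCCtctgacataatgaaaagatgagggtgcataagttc
CXCR4, chr2:136118336-136118399, minus strand: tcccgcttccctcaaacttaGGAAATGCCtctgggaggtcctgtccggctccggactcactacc
LTB, chr6:31582468-31582546, minus strand: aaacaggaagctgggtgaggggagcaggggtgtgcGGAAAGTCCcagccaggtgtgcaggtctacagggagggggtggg
NFKBIA, chr14:35404787-35404865, minus strand: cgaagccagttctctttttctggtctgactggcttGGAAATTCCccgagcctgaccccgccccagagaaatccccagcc
TNFAIP3, chr6:137867169-137867247, plus strand: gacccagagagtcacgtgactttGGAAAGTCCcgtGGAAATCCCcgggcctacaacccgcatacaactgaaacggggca
In the same windows DRAM1, RGS1, CD83, TRAF1, NFKB2, SOD2 and NFE2L3 had no match, which says only that these letters are absent there. RELB, IER3 and GPR84 had no entry.

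Of the 10183 features, 136 (1.34%) were called for the interaction at an adjusted p under 0.05 by limma. The interaction was negative for 83 of them (0.815%), 71 named genes and 12 unnamed probes, and positive for 53 (0.52%), 42 named genes and 11 unnamed probes. All 83 negative ones had a positive response to each single agent, and all 53 positive ones had a negative response to each, so that in both sets the combination lay closer to untreated cells than the sum of the single responses. The interaction and the sum use the same arrays, and an error in the untreated arrays moves them in opposite directions, so these counts describe the called features and are no test of additivity. Over all features, 85.1% of estimates were sub-additive and 1521 were super-additive.

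The 83 negative interactions had a median of -1.60 log2, with a range of -4.62 to -0.87, and 79 of them amounted to at least a 2-fold shortfall. Their median response was 1.84 log2 with both agents, 2.07 with T104 and 1.29 with CD153-Fc, each against untreated cells. The combination therefore gave a response near that of T104 alone rather than the sum. The 53 positive interactions were smaller, with a median of 1.15 log2 and a range of 0.79 to 1.86, and 39 of them reached 2-fold. Their median response was -0.24 log2 with both agents, -0.81 with T104 and -0.66 with CD153-Fc.

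**Figure D1:**
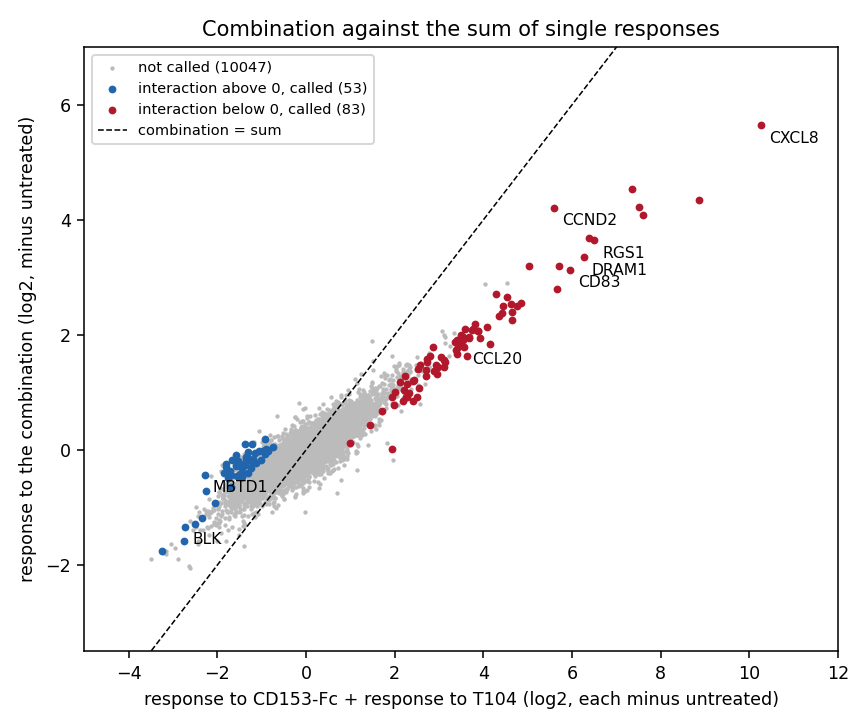
Response to the combination minus untreated cells (vertical axis, log2) against the sum of the responses to CD153-Fc and T104 (horizontal axis, log2), 1 point per feature, from group means of 2 arrays. The 83 features called with a negative interaction lie below the dashed line of equality on the right and the 53 called with a positive interaction lie above it on the left.

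The chemokine gene CXCL8, whose product interleukin-8 attracts neutrophils, had the most negative interaction. Its log2 intensity was 12.93 and 12.73 with both agents, 13.46 and 13.65 with T104, 10.77 and 11.38 with CD153-Fc, and 7.15 and 7.22 in untreated cells. The combination arrays lay below both T104 arrays and above both CD153-Fc arrays, and no group overlapped another. The response to both was 5.65 log2, where the single responses of 6.37 and 3.89 sum to 10.26, an interaction of -4.62 ± 0.27 (SE, n = 2 arrays per group, adjusted p = 1.79e-06). Taking 1 array from each group in all 16 possible ways gave -5.15 to -4.08. On the unprocessed linear scale CXCL8 read 7281 and 6860 with both agents, 11416 and 13595 with T104, 1736 and 2644 with CD153-Fc, and 265.7 and 250.2 in untreated cells, and the combination there was 0.516 of the linear sum after normalisation.

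The transcription factor genes of the NF-kB pathway and their inhibitors came next in the order of the pathway. RELB, a subunit of the non-canonical pathway, had log2 intensities of 10.90 and 11.10 with both agents, 11.20 and 11.38 with T104, 10.85 and 10.85 with CD153-Fc, and 8.96 and 8.52 in untreated cells. For RELB the 3 treated groups lay within 0.6 log2 of each other while their means stood 2.11 to 2.54 log2 above untreated cells, and the interaction was -2.39 ± 0.25 (adjusted p = 0.000250). NFKB2, the gene of the partner p100, read 10.35 and 10.28 with both agents, 10.70 and 10.52 with T104, 9.85 and 9.71 with CD153-Fc, and 8.30 and 7.32 in untreated cells. Its untreated arrays differed by nearly 1 log2, and its interaction of -2.26 ± 0.35 (adjusted p = 0.00638) was called in 2 of the 8 fits that left out 1 array, with -2.75 without untreated replicate 1 and -1.78 without untreated replicate 2. NFKB1, which encodes p105 and p50, had an interaction of -1.22 ± 0.19 (adjusted p = 0.00575).

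NFKBIA, the gene of the inhibitor that holds NF-kB in the cytoplasm, was the brightest of the 83. It read 14.87 and 14.96 with both agents, 15.11 and 15.16 with T104, 14.43 and 14.41 with CD153-Fc, and 12.17 and 12.53 in untreated cells, with no overlap between groups. Its interaction was -2.30 ± 0.18 (adjusted p = 2.91e-05). The highest unprocessed intensity among the 83 features was 36908, on a T104 array for NFKBIA. The brightest probe of the dimmest-topped array reached 65143, so the measured values of these probes were below the top of the scale. The log2 sum lies 4.86 above an untreated mean of 12.35 in NFKBIA, and 10.3 above 7.18 in CXCL8. Those levels exceed the brightest probe of every array, so additivity in log2 could not have been read for NFKBIA or CXCL8. The effect of this limit on the interactions was not tested. TNFAIP3, which encodes the ubiquitin-editing enzyme A20, read 12.46 and 12.47 with both agents, 12.81 and 12.77 with T104, 11.98 and 11.97 with CD153-Fc, and 10.17 and 9.96 in untreated cells, an interaction of -2.24 ± 0.20 (adjusted p = 6.03e-05). The spread within each treated pair of TNFAIP3 arrays was at most 0.04 log2, and the combination lay 0.33 log2 below T104 on average. The inhibitor gene NFKBIE (-1.61 ± 0.29), the atypical inhibitor gene NFKBIZ (-1.62 ± 0.22) and the A20-binding protein gene TNIP1 (-1.49 ± 0.22) were called as well.

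TRAF1, an adaptor that joins TNF receptors to their kinases and is itself an NF-kB target, gave nearly the same level with both agents as with T104. The log2 values were 11.25 and 11.39 with both agents, 11.26 and 11.51 with T104, 10.13 and 10.41 with CD153-Fc, and 7.52 and 7.74 in untreated cells. The combination and T104 arrays overlapped, and their means differed by -0.06 log2, against 2.64 for the ligand alone. The interaction of TRAF1 was -2.70 ± 0.24 (adjusted p = 6.63e-05).

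CXCR4, the receptor of the chemokine CXCL12, reached about the same level under every treatment. It read 10.94 and 10.43 with both agents, 10.98 and 10.83 with T104, 10.49 and 10.59 with CD153-Fc, and 7.64 and 8.15 in untreated cells. The combination arrays spanned the CD153-Fc arrays and overlapped the T104 arrays, although each agent alone gave a response of 2.65 or 3.01 log2, and the interaction was -2.87 ± 0.29 (adjusted p = 0.000229). CXCR4 was the only called gene among 25 tested cytokine and chemokine receptors, where 1.34% of all features were called.

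RGS1, a brake on G protein signalling, read 12.18 and 12.11 with both agents, 12.68 and 12.53 with T104, 10.69 and 11.09 with CD153-Fc, and 8.40 and 8.59 in untreated cells. DRAM1, a lysosomal membrane protein gene linked to autophagy and to p53, read 10.83 and 10.88 with both agents, 11.28 and 11.35 with T104, 9.98 and 9.93 with CD153-Fc, and 7.39 and 7.62 in untreated cells. In both genes the order of the groups was T104, combination, CD153-Fc and untreated, with no overlap. The interactions were -2.86 ± 0.24 for RGS1 (adjusted p = 3.41e-05) and -2.91 ± 0.22 for DRAM1 (adjusted p = 1.94e-05).

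SOD2, the mitochondrial superoxide dismutase gene, and GADD45A, a stress and DNA damage response gene, had combination levels well below those of T104. SOD2 averaged 13.05 ± 0.07 log2 (SD, n = 2) with both agents, and it read 13.69 and 13.68 with T104, 11.74 and 12.15 with CD153-Fc, and 10.61 and 10.40 in untreated cells. GADD45A read 11.57 and 11.70 with both agents, 12.12 and 12.22 with T104, 10.84 and 10.81 with CD153-Fc, and 9.56 and 9.55 in untreated cells. The combination minus T104 was -0.63 log2 for SOD2 and -0.54 for GADD45A, while the response to the ligand alone was 1.44 and 1.27. Their interactions were -2.07 ± 0.22 (adjusted p = 0.000346) and -1.80 ± 0.20 (adjusted p = 0.000452).

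**Figure D2:**
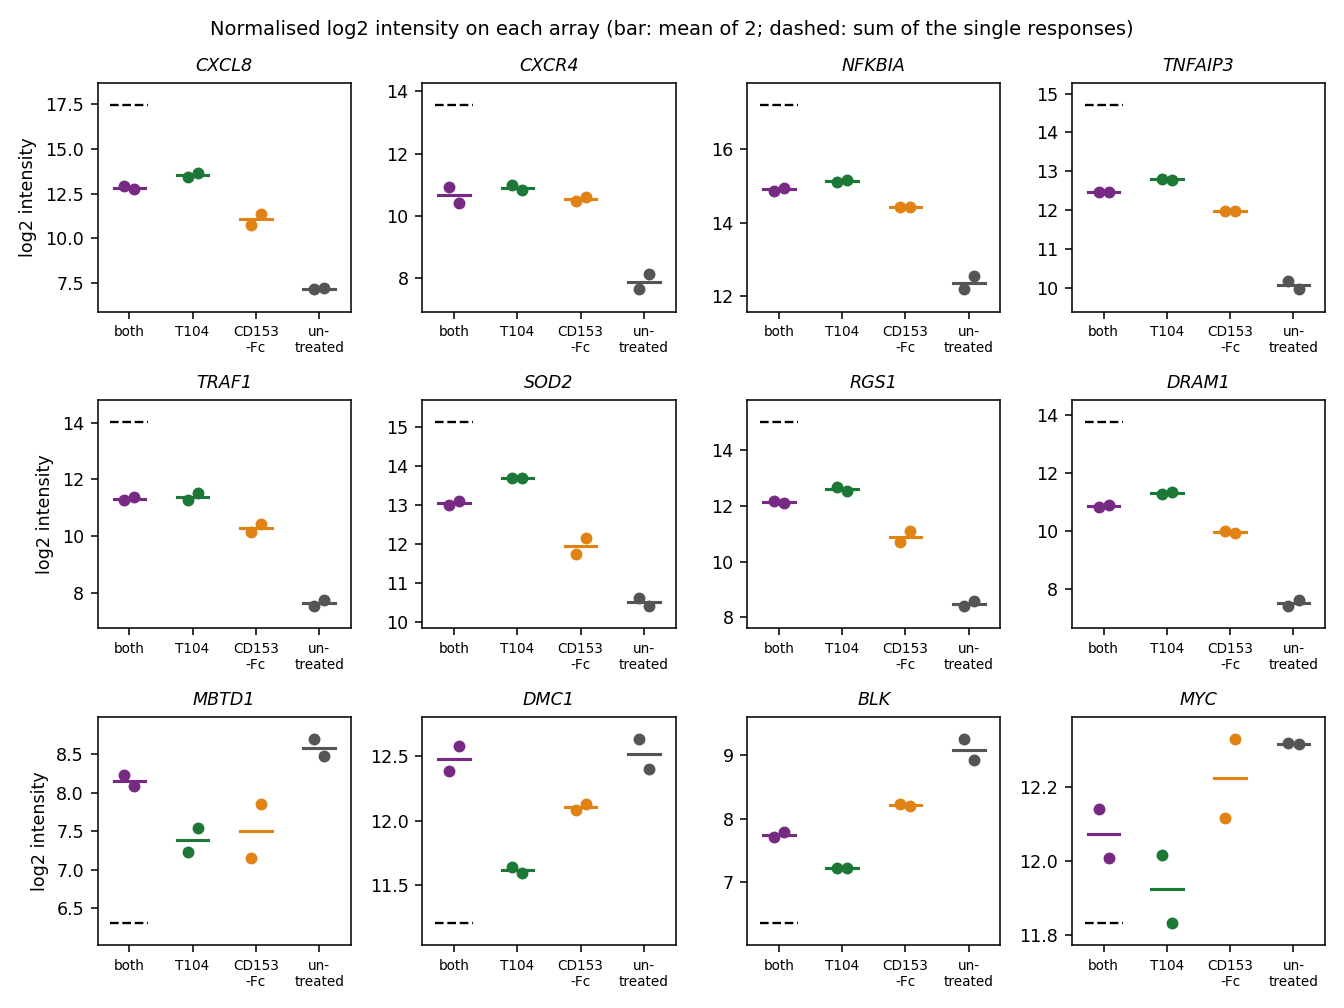
Normalised log2 intensity on each of the 8 arrays for 12 genes, with points for arrays, bars for the mean of 2, and a dashed line at the level that the sum of the single responses would give. In the 8 genes of the upper rows the combination lies far below the dashed line and near or below T104, in MBTD1, DMC1 and BLK it lies above the line, and in MYC, which was not called, the values stay within 0.5 log2.

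The remaining genes with very negative interactions were the activation marker gene CD83 (-2.83 ± 0.21), the lymphotoxin beta gene LTB (-2.49 ± 0.29), the transcription factor gene NFE2L3 (-2.05 ± 0.28), the early response gene IER3 (-2.01 ± 0.32) and GPR84, a receptor for medium-chain fatty acids (-1.97 ± 0.25). IER3 was called in 2 of the 8 fits that left out 1 array, and its untreated arrays read 8.63 and 9.50. CD83 read 11.98 and 11.87 with both agents, 12.18 and 12.37 with T104, 11.26 and 11.28 with CD153-Fc, and 8.83 and 8.75 in untreated cells. LTB read 10.68 and 10.44 with both agents, 10.68 and 10.77 with T104, 9.69 and 9.67 with CD153-Fc, and 7.03 and 7.67 in untreated cells. CD83 thus kept the 4 groups apart, while in LTB 1 combination array reached the lower T104 array.

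Another 13 of the 83 negative features were not above background on either untreated array, so their interaction is only bounded. IL4I1, a secreted amino acid oxidase, was at least 7.68-fold above untreated cells with both agents, at least 9.76-fold with T104 and at least 3.17-fold with CD153-Fc, and with its untreated level set at the detection limit its interaction was -2.01, against a fitted -3.29 ± 0.26 (adjusted p = 2.87e-05). On the same basis the interaction was -1.49 for the co-stimulatory receptor gene TNFRSF9, -1.18 for EBI3, a subunit of interleukins 27 and 35, -1.28 for the neurotrophin gene BDNF and -1.09 for the hyaluronan link protein gene HAPLN3. TNFRSF9 was at least 9.24-fold above untreated cells with both agents, at least 10.02-fold with T104 and at least 2.58-fold with CD153-Fc. A true untreated level under the limit would make each of these interactions more negative. CCND2, the gene of cyclin D2, was undetected with CD153-Fc and in untreated cells. It was at least 6.54-fold above untreated cells with both agents and at least 9.84-fold with T104, so its called interaction of -1.39 ± 0.31 (adjusted p = 0.0487) rests on levels under background and has no bound. It was called in 5 of 9 other settings.

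The largest group of listed genes with a negative interaction was the list of NF-kB feedback genes and targets. Of its 33 tested members 21 were called negative and 0 positive, with a median interaction of -1.62 log2, against 0.815% negative, 0.52% positive and a median of 0.01 over all features. The members not called included CYLD, a deubiquitinase gene, at -1.29 ± 0.30 (adjusted p = 0.0594), RELA at -0.87, IRF1 at -1.25 and the lymphotoxin alpha gene LTA at -1.64. IRF4 at 0.43 was the single member with an estimate above 0. In 27 of the 33 both combination arrays lay below both T104 arrays, and in 0 they lay above, where 18.3% of all features lay below and 20.3% above. These NF-kB genes were listed with earlier results of these data known.

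Of 15 tested cytokine and chemokine genes, 7 were called negative, against 0.815% of all features, with a list median of -1.33. They were CXCL8, LTB, EBI3, TNF (-1.74 ± 0.26), the chemokine genes CCL20 (-1.77 ± 0.32) and CXCL10 (-1.56 ± 0.31), and IL22 (-1.33 ± 0.23), whose product acts on epithelia. TNF read 12.55 and 12.45 with both agents, 12.92 and 12.82 with T104, 12.16 and 12.24 with CD153-Fc, and 10.52 and 11.14 in untreated cells. Its groups did not overlap, yet the interaction of TNF was called in 4 of the 8 fits that left out 1 array. CXCL10 was above background on both combination and both T104 arrays, on 1 CD153-Fc array and on 0 untreated arrays, and its interaction was -0.25 with the untreated level set at the detection limit.

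Among 11 immune modulators and activation markers 4 were called, CD83, RGS1, IL4I1 and CD274, the gene of the checkpoint ligand PD-L1. All 4 were negative, where 0.815% of all features were called negative, and the list median was -0.86. CD274 read 9.62 and 8.93 with both agents, 9.65 and 9.62 with T104, 9.13 and 9.11 with CD153-Fc, and 7.68 and 7.97 in untreated cells, an interaction of -1.66 ± 0.31 (adjusted p = 0.0208). Its 2 combination arrays differed by 0.7 log2, so one of them lay below the CD153-Fc arrays. CD274 was called in 3 of the 8 fits that left out 1 array.

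Within the TNF receptor superfamily and its ligands the direction differed between members. Of 17 tested, TNFRSF9 and the ligand gene CD70 (-1.54 ± 0.23) were called negative, and the ligand gene TNFSF15 (1.498 ± 0.31) and the receptor gene TNFRSF19 (1.18 ± 0.23) positive. Over all features the shares were 0.815% negative and 0.52% positive. TNFSF15 read 8.53 and 8.29 with both agents, 7.78 and 7.41 with T104, 7.86 and 8.19 with CD153-Fc, and 8.92 and 8.50 in untreated cells. TNFRSF19 read 8.44 and 8.37 with both agents, 7.92 and 8.13 with T104, 9.14 and 9.22 with CD153-Fc, and 10.01 and 9.96 in untreated cells. The combination thus lay above T104 in both genes, and below CD153-Fc in TNFRSF19 only.

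Of 17 tested signalling genes next to the receptor, 2 were called negative, TRAF1 and TANK, a TRAF-binding regulator. Over all features 0.815% were called negative. The median of this list was -0.23. TANK had an interaction of -0.997 ± 0.20 (adjusted p = 0.0314), and another TANK probe had an estimate of the opposite sign. TRAF3 (-0.78), MAP3K14, the gene of the kinase NIK (-0.71), and the ubiquitin ligase gene BIRC2 (-0.40 ± 0.28) were not called. BIRC2 read 11.59 and 11.81 with both agents, 11.68 and 11.86 with T104, 10.82 and 10.68 with CD153-Fc, and 10.72 and 10.11 in untreated cells, so there the combination overlapped T104, and CD153-Fc lay below both and overlapped untreated cells.

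Among genes of growth control, CCND2 and its partner kinase gene CDK6 (-1.34 ± 0.25, adjusted p = 0.0208) were called negative. They were the 2 called of 49 tested G1/S and replication genes, where 0.815% of all features were called negative. The list median was -0.05. CDK6 read 9.69 and 9.54 with both agents, 9.89 and 9.94 with T104, 9.70 and 9.75 with CD153-Fc, and 8.47 and 8.90 in untreated cells. The single agents and the combination gave nearly the same level of CDK6. Of 15 tested p53 targets and CDK inhibitors, DRAM1 and GADD45A were called negative, beside the same 0.815%, with a list median of -0.57. CDKN1A, the gene of the inhibitor p21, was at -1.12 ± 0.45 (adjusted p = 0.322), and this value was -0.46 without untreated replicate 1 and -1.77 without untreated replicate 2.

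Smaller numbers were called elsewhere, beside 0.815% negative and 0.52% positive over all features. A list with 1 call rests on a single gene. The transcription factor gene ATF3 was 1 of 18 AP-1 and immediate early genes (-1.12 ± 0.24), and IER3 was 1 of 12 genes of MAPK feedback, where the phosphatase gene DUSP1 was at -1.34 ± 0.30 (adjusted p = 0.0509). Of 30 genes linked to ALK and STAT3 in this lymphoma 4 were called negative, IL22, CD274, the actin-capping gene TMOD1 (-1.48 ± 0.32, and -1.06 with untreated cells, where it was not detected, set at the detection limit) and SOCS3 (-1.01 ± 0.22), a feedback inhibitor of STAT3. TMOD1 was called in 4 of 9 other settings and lost its call without background correction, with an offset of 50, on the authors' processed intensities, without the filter and with the replicate block. CXCL10 was 1 of 35 interferon-stimulated genes, and the steroid and cholesterol synthesis gene HSD17B7 (1.10 ± 0.22) 1 of 23 genes of cholesterol synthesis and efflux, in the positive direction.

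In 17 of the 30 lists, those of the line's own markers and of other cell types included, 0 members were called by limma, where 1.34% of all features were. Those with the most members were 67 cytosolic ribosomal protein genes (median interaction 0.04), 62 genes of oxidative phosphorylation (0.04), 46 G2/M genes (0.02) and 39 genes of the MYC and ribosome biogenesis list (0.05). At an unadjusted p under 0.05 these held 3 negative and 4 positive, 2 and 3, 0 and 2, and 1 and 1 members. Of all 10183 features, 1250 were under that p, 619 of them negative. The 8 anti-apoptotic genes (median 0.01), 18 pro-apoptotic genes (-0.16), 14 T cell identity genes (0.15) and 11 cytotoxic granule genes (-0.11) had 0 calls too, with 0 and 0, 4 and 1, 2 and 2, and 0 and 1 at an unadjusted p under 0.05. MYC itself was at 0.24 ± 0.20 and the fusion partner ALK at -0.18 ± 0.21. The array's duplicates leave an SE of about 0.2 log2 on these values. The calls nearest to no interaction over all features were at -0.87 and 0.79 log2, so departures from the sum well above that SE could also have been missed.

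**Figure D3:**
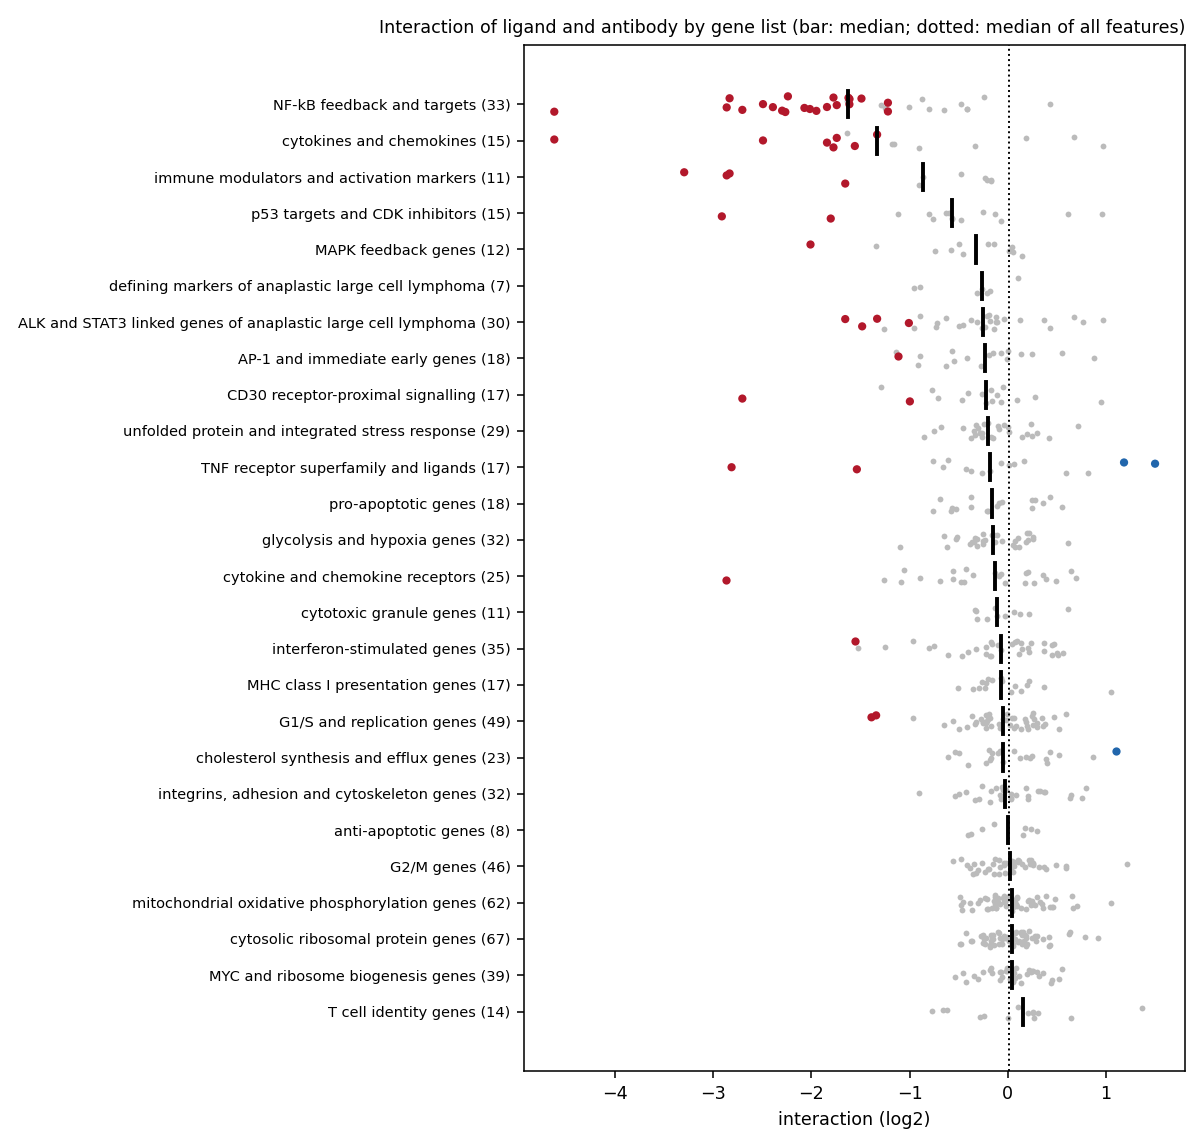
Interaction (log2, horizontal axis) of each tested member of 26 gene lists, with the number tested in brackets, the list median as a bar and the median of all features as a dotted line. Coloured points were called, and the NF-kB, cytokine and immune modulator lists have the lowest medians, at -1.62, -1.33 and -0.86.

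The 53 features with a positive interaction were ones whose mean was lower with each single agent than in untreated cells. With both agents the mean was above that with T104 in 53 of the 53 and above that with CD153-Fc in 47. MBTD1, a chromatin reader gene of the MBT family, had the largest value. It read 8.23 and 8.09 with both agents, 7.23 and 7.54 with T104, 7.16 and 7.86 with CD153-Fc, and 8.70 and 8.48 in untreated cells. The combination lay between the single agents and untreated cells without overlap, and the interaction was 1.86 ± 0.34 (adjusted p = 0.0208).

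DMC1, a strand exchange recombinase known from meiosis, read 12.38 and 12.58 with both agents, 11.64 and 11.59 with T104, 12.08 and 12.13 with CD153-Fc, and 12.64 and 12.40 in untreated cells. The combination overlapped untreated cells, while both single agents were below them, and the interaction was 1.28 ± 0.20 (adjusted p = 0.00726). XRCC2, a DNA repair gene, read 10.61 and 10.62 with both agents, 10.06 and 9.80 with T104, 9.84 and 10.12 with CD153-Fc, and 11.17 and 10.54 in untreated cells, an interaction of 1.56 ± 0.29 (adjusted p = 0.0211). Its untreated arrays differed by 0.6 log2, and the combination lay within their range.

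BLK, a Src family kinase gene best known from B cells, kept more of its decrease. It read 7.71 and 7.79 with both agents, 7.23 and 7.23 with T104, 8.23 and 8.21 with CD153-Fc, and 9.26 and 8.92 in untreated cells. The combination of BLK lay between T104 and CD153-Fc with no overlap, and the interaction was 1.39 ± 0.27 (adjusted p = 0.0239). The Rab regulator gene SGSM1 (1.22 ± 0.26) and TNFRSF19 also stayed below CD153-Fc with both agents on average, by 0.28 and 0.77 log2.

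The other positive interactions named by the same rule were CCBE1, an extracellular matrix gene (1.48 ± 0.27), the prostaglandin reductase gene PTGR2 (1.47 ± 0.32), the ciliary membrane gene TMEM17 (1.38 ± 0.24), the zinc finger genes ZNF394 (1.37 ± 0.27) and ZNF121 (1.33 ± 0.26), CDKN2AIPNL (1.29 ± 0.20), FKBP14, a protein folding enzyme of the endoplasmic reticulum (1.29 ± 0.24), the centrosome gene CEP19 (1.25 ± 0.26) and the chemerin receptor gene CMKLR2 (1.22 ± 0.25). Another probe of ZNF394, FKBP14 and CEP19 had an estimate of the opposite sign. CDKN2AIPNL read 13.83 and 14.05 with both agents, 13.34 and 13.44 with T104, 13.42 and 13.56 with CD153-Fc, and 14.39 and 14.06 in untreated cells.

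Of the 53, 8 were also called against untreated cells with both agents, 50 with T104 and 20 with CD153-Fc, where 2.85%, 5.41% and 0.275% of all features were called lower. Of the 83, 79 were also called with both agents, 82 with T104 and 75 with CD153-Fc, where 3.82%, 5.11% and 1.1% were called higher. In either direction these 3 comparisons called 6.67%, 10.5% and 1.37% of features, and untreated cells are part of each of them and of the interaction. Untreated replicate 1 lay above untreated replicate 2 in 36 of the 53, with a median difference of 0.11 log2, against 47.9% and -0.02 over all features. For the 83 negative features that median difference was -0.15, with replicate 1 above in 30. The part of this difference in the calls was not tested.

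A super-additive response was called for 0 of 10183 features by limma, and 0 features with a super-additive estimate reached an unadjusted p under 0.05, against 1250 with a sub-additive estimate. The smallest adjusted p among super-additive estimates was 0.433. The class shares the single-agent and untreated arrays with the interaction, in opposite directions, so the definition itself favours sub-additive estimates. These counts therefore describe the features and are no test of super-additivity. The count of super-additive calls was also 0 in each of the other settings tried and without each array. The named genes with the smallest p were EIF3L, a translation initiation factor gene (-0.44 ± 0.21), SPTY2D1 (-0.63 ± 0.38), the glutamate dehydrogenase gene GLUD1 (-0.32 ± 0.18), POLR2G, a subunit of RNA polymerase II (-0.31 ± 0.19), and the septin gene SEPTIN6 (-0.52 ± 0.32), with adjusted p between 0.445 and 0.570. EIF3L read 12.17 and 12.31 with both agents, 12.99 and 12.63 with T104, 12.69 and 12.51 with CD153-Fc, and 12.77 and 12.70 in untreated cells. The combination arrays of EIF3L lay below the other 6, and the combination was 0.57 ± 0.13 log2 under T104 in the fit of the 6 treated arrays alone (adjusted p = 0.0310), while the interaction was not called. The ligand and the antibody each have a response near 0 in these genes, so the sign of their sum, and with it the class, is uncertain.

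A comparison that uses different arrays on its 2 sides was the response to the ligand on top of the antibody, the combination minus T104, set beside the response to the ligand alone, CD153-Fc minus untreated cells. Of the 112 features called higher with CD153-Fc alone (1.1%), 97 had a lower mean with both agents than with T104 and 15 a higher one, while 48.1% of all features had a lower mean. Their median was -0.23 log2 when the ligand was added to T104, against 1.11 for the ligand alone. Of the 28 called lower with CD153-Fc alone (0.275%), 24 had a higher mean with both agents than with T104, with a median of 0.32 log2 when added to T104, against -0.85 alone. At an unadjusted p under 0.05 the combination differed from T104 in the opposite direction to the ligand alone for 20 of the 112 and 14 of the 28, and in the same direction for 1 and 0. Across the 10183 features, which are not independent replicates and share normalisation, the ligand's response alone and on top of T104 had a Pearson r of -0.232, with -0.322 to -0.114 when 1 array was left out.

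Among the 83 negative interactions, 80 had a lower mean with both agents than with T104. In 71 both combination arrays lay below both T104 arrays and in 0 above, where 18.3% of all features lay below and 20.3% above. Those with a slightly higher mean were DRC9, TMOD1 and EMP3. Among the 53 positive interactions, 53 had a higher mean with both agents than with T104, in 51 without overlap. The combination minus T104 is also a term of the interaction, so these counts describe the called features.

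No single feature was called between the combination and T104 in limma over all 8 arrays (0 of 10183, 0%), with 418 at an unadjusted p under 0.05, 179 of them lower. That fit shares 1 spread among all groups, and the untreated duplicates were the most variable. When the 6 treated arrays were fitted alone, a setting chosen after seeing the data, 64 features were called, 18 lower with both agents (0.177%) and 46 higher (0.452%), and limma with array weights called 56, 15 lower and 41 higher. Of the 112 features raised by CD153-Fc alone, 7 were among the lower and 0 among the higher. They were CXCL8 (-0.72 ± 0.14, adjusted p = 0.0166), SOD2 (-0.63, adjusted p = 0.0166), GADD45A (-0.54, adjusted p = 0.0310), IL22 (-0.56, adjusted p = 0.0408), the chloride channel family gene CLIC4 (-0.52) and 2 unnamed probes. Of the 28 lowered by CD153-Fc alone, 3 were higher, among them CDKN2AIPNL (0.56) and TMEM17 (0.52). CLIC4 and CCL20, described next, were chosen after their values were seen.

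CCL20, the chemokine gene for the receptor CCR6, had the greatest shortfall from T104 in that fit. It read 8.71 and 9.38 with both agents, 10.50 and 10.12 with T104, 7.89 and 7.62 with CD153-Fc, and 7.22 and 7.27 in untreated cells. Every CCL20 group stood apart from the others, and the combination lay 1.26 ± 0.18 log2 under T104 (adjusted p = 0.000888 in the 6-array fit). With CD153-Fc alone CCL20 was 0.51 log2 above untreated cells and not called (adjusted p = 0.321).

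**Figure D4:**
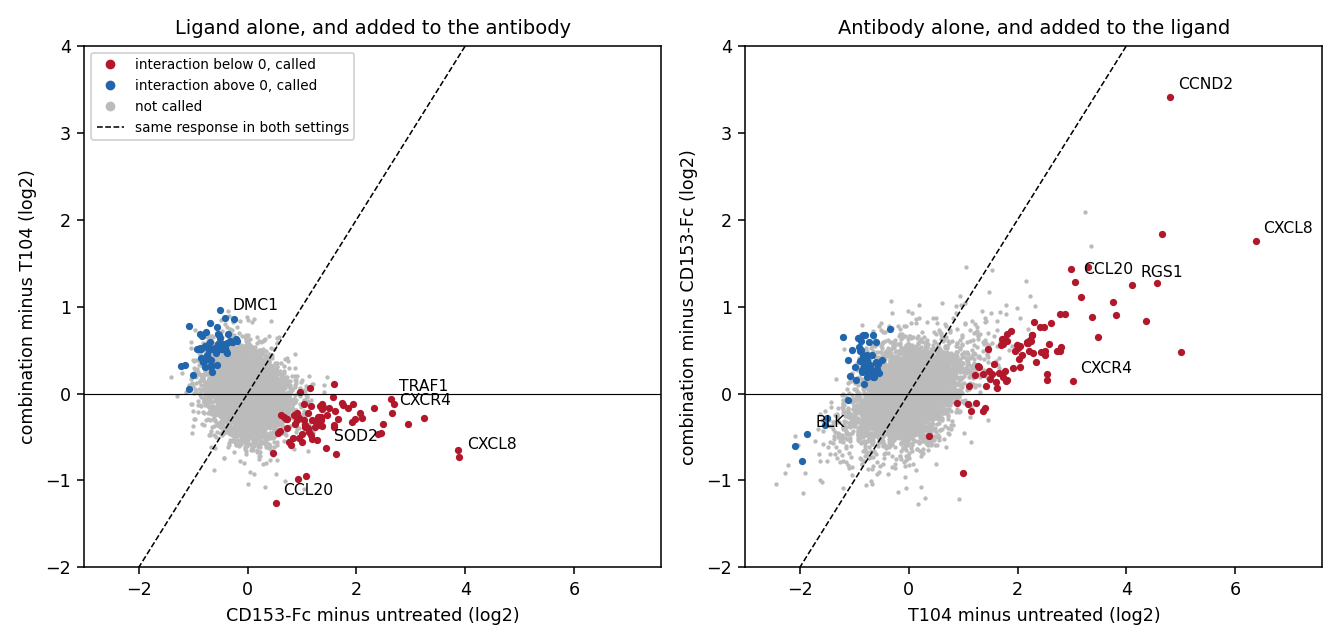
Left, combination minus T104 (vertical axis, log2) against CD153-Fc minus untreated cells (horizontal axis, log2). Right, combination minus CD153-Fc against T104 minus untreated cells, with 1 point per feature, called interactions coloured and the dashed line at equal responses. On the left most features raised by the ligand alone lie below 0, and on the right most features raised by T104 alone lie above 0 but under the dashed line.

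For most features called with T104 alone, the antibody on top of the ligand kept the direction it had alone. Among the 53 features with a positive interaction most went the other way. T104 alone lowered their means, yet 47 had a higher mean with both agents than with CD153-Fc. That difference is also a term of the interaction by which they were chosen. Of 520 features called higher with T104 alone (5.11%), 455 had a higher mean with both agents than with CD153-Fc, where 49.3% of all features did, and their median was 0.28 log2 when T104 was added to the ligand, against 0.90 for T104 alone. Of 551 called lower with T104 alone (5.41%), 400 had a lower mean with both agents than with CD153-Fc, with a median of -0.20 log2 against -0.83. The Pearson r across features was 0.430 and the slope 0.231. The combination and CD153-Fc differed in 19 features (0.187%), all higher with both agents and all 19 also higher with T104 alone. CCND2 was at least 6.05-fold higher with both agents than with CD153-Fc, where it was not detected. IL17F, not detected with CD153-Fc either, was at least 2.42-fold higher. The largest differences among named genes measured in both groups were those of TNFRSF9 (1.84 ± 0.21), CXCL8 (1.76 ± 0.19), EBI3 (1.46 ± 0.19), CXCL10 (1.43 ± 0.22), CCL20 (1.29 ± 0.23), IL4I1 (1.28 ± 0.18) and RGS1 (1.25 ± 0.17). The count was 259 when the 6 treated arrays were fitted alone, 178 higher and 81 lower, and between 1 and 262 without 1 array.

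Stability of the calls was uneven. Of the 83 negative calls, 24 were called again without each of the 8 arrays in turn, and of the 53 positive calls 0 were. The 21 named genes among the 24 were CXCL8, CD83, DRAM1, IL4I1, NFKBIA, RGS1, TNFAIP3, TRAF1, CXCR4, RELB, TNFRSF9, SOD2, NINJ1, GADD45A, PTGER4, LTB, NAMPT, SERPINB8, GPR84, SLC2A6 and TP53BP2. Among those not yet described, NINJ1, a cell surface protein of membrane rupture (-1.95 ± 0.21), PTGER4, a prostaglandin E2 receptor gene (-1.95 ± 0.22), and NAMPT, an enzyme gene of NAD salvage (-1.81 ± 0.22), had the largest values. The sign of all 136 stayed the same in each of these fits and in all 16 choices of 1 array per group, where 13.4% of all features were negative throughout and 13.7% positive throughout. The 136 were called for large interactions on these same arrays, and each such fit averages some of the 16 choices. Their constant sign is therefore a description and no test of stability. The number of calls moved most with the untreated arrays, to 471 without untreated replicate 1 (235 negative, 236 positive) and to 1722 without untreated replicate 2 (915 and 807). It was 40 and 32 without combination replicate 1 or 2, 26 and 28 without T104 replicate 1 or 2, and 36 and 34 without CD153-Fc replicate 1 or 2. A group with 1 array left is assumed in these fits to vary like the others, and leaving out an untreated array takes the pair that differed most out of the estimate of the spread.

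**Figure D5:**
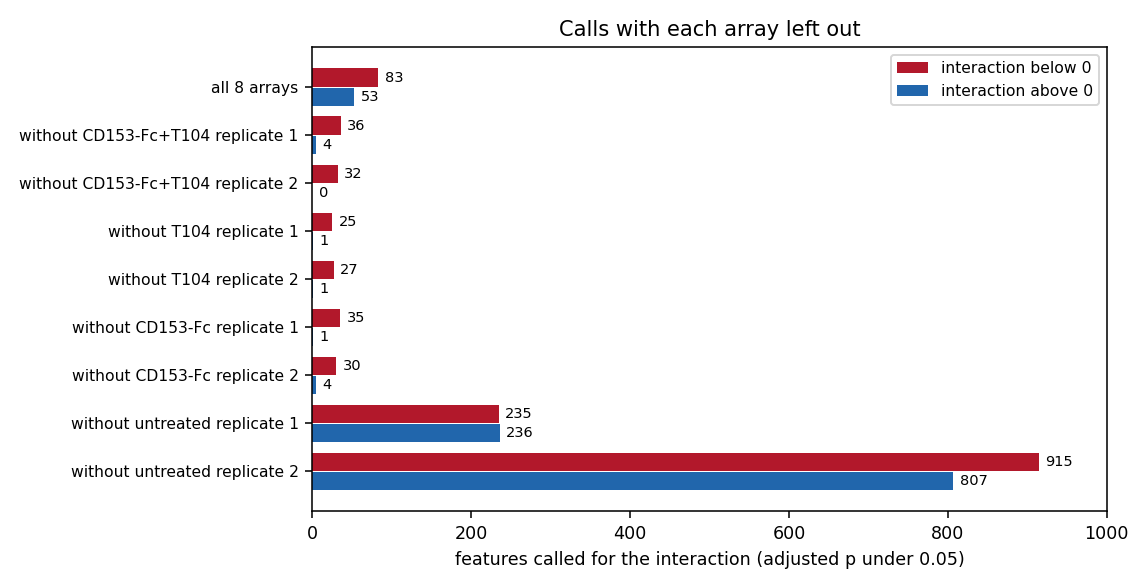
Features called for the interaction (horizontal axis, number at adjusted p under 0.05) with all 8 arrays and with each array left out, negative and positive apart. Negative calls run from 25 to 915 and positive calls from 0 to 807, the highest without untreated replicate 2.

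A shortfall on the log2 scale can be an excess on the linear scale, so the mean intensities were also summed without logs. On that scale the direction was the same for 83 of 83 negative features. It was also the same for 53 of 53 positive features, but there it largely follows from arithmetic and is no check. Where both single responses are decreases, the linear sum lies below the level that the log2 sum gives. The linear sum was above 0 for 45 of the 53. The median of the combination over the linear sum was 0.596 for the negative set, 13 of which had an untreated level under background. For the 15 genes with the most negative interaction that were detected in every group the ratio lay between 0.516 for CXCL8 and 0.686 for TRAF1. Another probe of the same gene was available for 35 called genes. It was called in the same direction for 12, in the opposite direction for 0, and had an estimate of opposite sign for 10.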

How the data were processed

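RNA of 8 Karpas 299 cultures was hybridised to Illumina HumanHT-12 v3 arrays, 1 array per culture and 2 per group, with groups taken from the sample titles. The authors deposited unnormalised probe intensities on a linear scale with their detection p-values, and a table of processed intensities with array medians of 119.7, used as an alternative only. BeadStudio is named in the design text and GenomeStudio in the submitters' processing notes. Their versions, the authors' normalisation and the slide of each array were not given in the sources used here. Processed values correlated with the unprocessed ones at r of at least 0.9996 per array, so they are linear and uncentred.

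The unprocessed intensities were background-corrected from the detection p-values, given an offset of 16, quantile-normalised and put on the log2 scale with neqc in limma 3.58.1 (R 4.3.3). Of 48797 probes, 12543 with a detection p-value under 0.01 on at least 2 arrays were kept, and the brightest per gene gave 10183 features. The platform annotation gave 28093 probes 1 symbol, 13 several and 20691 none, and looking up current symbols in RefSeq changed 0 of them. Probes with several symbols or none were not named. A limma fit of group means (4 residual and 8.78 prior degrees of freedom, trend with intensity) gave each contrast with its standard error (SE) and 2-sided p-values adjusted by the Benjamini-Hochberg method over all features. A call needs an adjusted p under 0.05. The model was run on simulated data with a spread per feature shared by all groups, which leaves out the wider spread of the untreated pair. Folds against a group not above background on both arrays are given as "at least", against the lowest detected signal or the probe's own, whichever was higher.

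Named genes were the 15 most negative and 15 most positive called interactions that were detected in every group and had 1 sign in all 16 single-array combinations, the 5 super-additive genes with the smallest p, up to 3 members of each of 30 gene lists by p, the 5 called genes with the smallest p among those not above background in a group, and TNFRSF8, ALK, NFKB2, RELB, TRAF1, CXCL8, CDKN1A and MYC. List members and genes outside this rule that are named beside a count were chosen after their values were seen. Of 934 listed genes, 875 had a probe and 635 entered the tests. The members and lists were chosen with earlier results of these data known. Alternatives covered scaling, background, filter, probe choice, weights, prior variance, the replicate number as a block and each array left out. Same-numbered arrays did not deviate together (correlations of -0.099 to 0.0072 over the 6 pairs of groups), so replicate numbers were not taken to pair the samples.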

Additional observations from a re-analysis of the deposited data

How the results depend on the processing

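The interaction had 135 calls with median scaling in place of quantiles, 137 without background correction, 133 with an offset of 50, 137 from the authors' processed intensities, 109 among probes detected on all 8 arrays and 146 with every probe kept apart. It had 83 without a filter on dim probes (21 positive), 90 without a trend in the prior variance (22 positive) and 223 with array weights (100 positive), where both untreated arrays had a weight of 0.36 against 1.23 to 1.61 for the others. With the replicate number as a block, 105 features were called for the interaction and 88 for CD153-Fc against untreated cells, and no other count of calls moved by over 1.5 times. CD153-Fc against untreated cells had 140 calls, and 92 without a filter. The combination against CD153-Fc had 19 calls, and 9 among probes detected on all 8 arrays, 11 without a trend, 205 with array weights and 259 in the 6 treated arrays alone. The combination against T104 had 0 calls, and 56 with array weights and 64 in the 6 treated arrays alone. The combination against untreated cells had 679 calls, and 378 with array weights. With 1 array left out, the ranges were 26 to 1722 calls for the interaction (25 to 915 negative and 0 to 807 positive), 0 to 62 for the combination against T104, 1 to 262 against CD153-Fc, 37 to 2624 for CD153-Fc, 286 to 3419 for T104 and 188 to 3345 for the combination against untreated cells. The correlation of the ligand's responses ran from -0.322 to -0.114 and that of the antibody's from 0.358 to 0.430. The interactions that changed sign were those of 3 uncalled genes, S100A9 (0.053 without untreated replicate 2 and -0.604 without replicate 1), ALK (0.0016 without untreated replicate 1 and -0.358 without replicate 2) and CD68 (0.080 without untreated replicate 1 and -0.476 without replicate 2), and the cause was not tested. Among values of single named genes, 1855 kept their direction and, where tested, their side of the threshold. Another 220 fell short of it, 71 newly passed it and 3 changed sign. The 1855 include the linear-scale values, which were compared by direction only and had no test. Signal near background limits the 13 negative calls not detected in untreated cells.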

Other observations

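HNRNPA3, an RNA-binding protein gene picked out after its values were seen, gave the same level with both agents as in untreated cells on average. It read 9.19 and 9.16 with both agents, 10.16 and 10.16 with T104, 10.15 and 10.03 with CD153-Fc, and 8.55 and 9.77 in untreated cells. The combination lay below both single agents without overlap, with an interaction of -1.92 ± 0.40 (adjusted p = 0.0362) and 0.98 ± 0.13 log2 under T104 in the 6 treated arrays (adjusted p = 0.000393). The untreated arrays of HNRNPA3 differed by 1.2 log2 and lay on either side of the combination.

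Among the 46 features higher with both agents than with T104 in the 6 treated arrays, IL18, an interleukin gene of the interleukin-1 family, read 13.76 and 13.84 with both agents, 13.09 and 13.32 with T104, 13.46 and 13.56 with CD153-Fc, and 13.76 and 13.83 in untreated cells. CREB1, the gene of a cyclic AMP responsive transcription factor, read 14.06 and 14.11 with both agents, 13.57 and 13.40 with T104, 13.86 and 13.84 with CD153-Fc, and 14.13 and 13.94 in untreated cells. In IL18 and CREB1 the combination was at the untreated level while T104 was below it, and another CREB1 probe had an interaction estimate of the opposite sign.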
